A study of Zea mays with 17 samples.

Results

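The genes described here were abundant in both somatic cell preparations of the maize (Zea mays) anther and nearly absent from its meiocytes. They were chosen by their CPM (counts scaled to a common library total) as nuclear genes with 50 CPM or more in each of the 8 libraries of tapetum and other somatic cells and 10 CPM or less in each of the 4 meiocyte libraries, leaving out any gene whose lowest tapetum value lay above its highest value in other somatic cells. Of 44146 nuclear genes (46430 rows in all), 32 met the rule, fewer than the 150 it would have kept, and the last condition left out 0. The captured cells' values chose these genes, so their contrast with meiocytes is given as a description and supports nothing. The word absent holds only within the limit of 10 CPM, since 31 of the 32 had at least 1 count in a meiocyte library.

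Anthers came from greenhouse plants of the inbred line W23 carrying bz2, labelled wild type, and all groups share that genotype. The libraries described are laser-captured tapetum (TAP) at anther lengths of 2.0 mm and 1.5 mm, captured other somatic cells (OSC) at 2.0 mm and 1.5 mm, captured meiocytes (ME) at 2.0 mm and 1.5 mm, and fixed whole anthers (FA) at 2.0 mm and 1.5 mm, with 2 libraries a group except FA at 1.5 mm with 3. CEL-seq2, a low-input method that reads transcripts at their 3' ends, was used for all 17 libraries. Laser capture cuts chosen cells out of a section, and the labels say neither which wall layers OSC holds nor whether libraries came from separate plants, so p-values measure only the spread between these libraries, which may be technical.

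The tapetum is the innermost somatic layer of the anther wall. It encloses the meiocytes, nourishes them through meiosis, later supplies material for the pollen wall, and in grasses is a known source of phased small RNAs. Besides the tapetum, the anther wall has an epidermis, an endothecium and a middle layer, and the connective is a further somatic tissue outside the wall. The rule asks for transcripts present in both TAP and OSC and nearly absent from ME, and it does not ask for equal levels in TAP and OSC. The study's title concerns movement of phased small RNAs from tapetum to meiotic cells, and gene expression is described for the same cells.

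Totals ran from 280760 to 4428287 counts per library, and 0 counts of a gene allow up to 10.7 CPM in the smallest library and 0.677 CPM in the largest (3 counts, counting error only). The table does not pair the nuclear gene IDs with names, and 0 of the 32 members matched an entry of the RefSeq gene table, so no names or functions are given. For the same reason 0 of the 19 meiocyte, 23 tapetum and 10 wall marker symbols could be matched to a count row, and the captured cell types were not checked against markers. Members are therefore numbered 1 to 32, from the highest to the lowest of their lowest TAP or OSC values, and IDs are printed for a few of them. The second ME library at 1.5 mm correlated less with its replicate (r = 0.830, log2(CPM + 1) across genes) than with an ME library of the other length, the first at 2.0 mm (r = 0.895).

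Few genes of comparable somatic level were this low in meiocytes. Of 1130 nuclear genes with 50 CPM or more in all 8 TAP and OSC libraries, 485 (42.9%) were also at 50 CPM or more in all 4 ME libraries and 889 (78.7%) in at least 1, while the members make up 2.83%. The mean ME level of the 1130 genes had a median of 41.8% of their mean TAP and OSC level. For the members this median was 1.73%, with a range of 0% to 3.84%. These values describe the choice and are not tested.

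**Figure D1:**
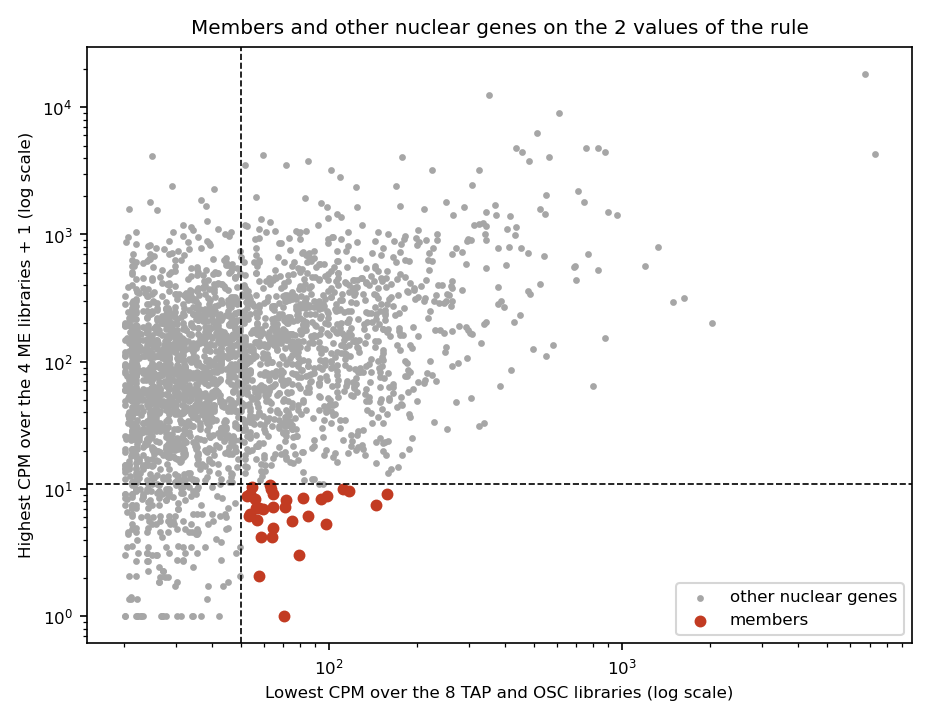
Each point is a nuclear gene with at least 20 CPM in all TAP and OSC libraries, placed by its lowest CPM over the 8 TAP and OSC libraries (x, log scale) and its highest CPM over the 4 ME libraries plus 1 (y, log scale); dashed lines mark the limits of 50 and 10 CPM. The 32 members (red) fill the lower right corner and are not set apart by a gap from the genes around them.

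The limits cut through a continuous range of genes. The last members inside had lowest TAP or OSC values of 52.7, 53.4 and 53.8 CPM, and the first genes outside, which met the ME limit, had 49.8, 49.8 and 48.3 CPM. On the ME side, the members nearest the limit had highest ME values of 9.66, 9.30 and 8.94 CPM, and the nearest genes outside had 10.0, 10.0 and 10.7 CPM. In the shallowest OSC library, 50 CPM stands for 14.0 counts, and every member held at least 15 counts there. The limit of 10 CPM stands for 9.74 and 5.59 counts in ME at 2.0 mm and for 23.3 and 28.0 counts in ME at 1.5 mm. Membership leaned on the ME libraries at 1.5 mm: without the first, 60 genes met the rule, and without the second, 65, all 32 members among them in both cases.

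Summed over the 32 members, the level was 4339 and 4307 CPM in TAP at 2.0 mm, and 4540.5 and 4774 CPM in TAP at 1.5 mm. OSC held 6266 and 6080.4 CPM at 2.0 mm, and 5518 and 6639 CPM at 1.5 mm. ME held 53.4 and 39.3 CPM at 2.0 mm, and 84.6 and 133 CPM at 1.5 mm. FA, which the rule did not use, held 4842 and 4662 CPM at 2.0 mm, and 3405, 3649.7 and 3362 CPM at 1.5 mm. Every OSC sum thus lay above every TAP sum, and the FA sums at 2.0 mm above those at 1.5 mm, but 3 members carried both orders. Without members 1 and 29, a choice made after seeing the values, the second TAP library at 1.5 mm held 4128 CPM, above the first OSC library at 1.5 mm with 3921 CPM. Without members 1, 7 and 29, the first FA library at 2.0 mm held 3292 CPM, below the second FA library at 1.5 mm with 3406 CPM. The members' median level overlapped between the FA lengths, at 98.3 and 109 CPM at 2.0 mm and 97.4, 102 and 95.8 CPM at 1.5 mm. In all these bulk samples, fewer cells of a type and less RNA per cell cannot be told apart.

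**Figure D2:**
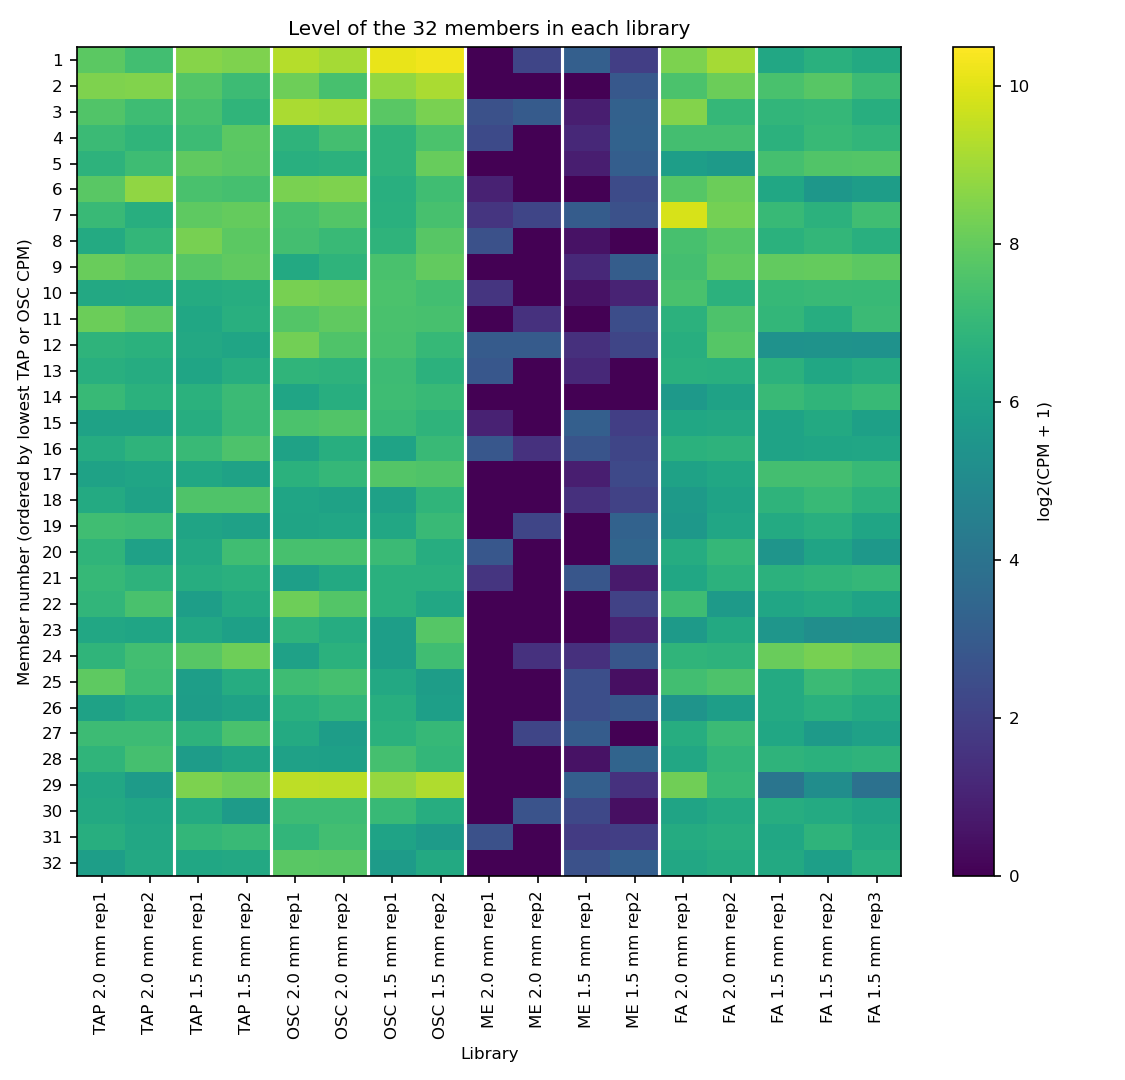
Colour gives log2(CPM + 1) of each member (rows, numbered by lowest TAP or OSC value) in each of the 17 libraries (columns), with white lines between groups. The ME columns are dark in all rows, and the FA columns resemble the TAP and OSC columns except in single rows such as 1, 7 and 29.

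What remained in ME was uneven between libraries. At 2.0 mm, 19 and 22 of the 32 members had 0 counts in the first and second ME library, against 8 and 4 members at 1.5 mm, where the ME libraries were deeper. The members' summed counts were 52 and 22 in ME at 2.0 mm and 197 and 371 in ME at 1.5 mm. The second ME library at 1.5 mm, the one that resembled another group, gave the highest ME value for 17 members, the first at 1.5 mm for 7, and those at 2.0 mm for 6 and 1. Whether these counts came from meiocytes or from neighbouring cells was not tested.

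Zm00001d006808 (member 14) was the one gene of the set with 0 counts in all 4 ME libraries, which allows up to 3.08 and 5.36 CPM in ME at 2.0 mm and 1.29 and 1.07 CPM in ME at 1.5 mm. It held 135 and 102 CPM in TAP at 2.0 mm and 103 and 143 CPM in TAP at 1.5 mm. OSC libraries held 70.4 and 95.2 CPM of it at 2.0 mm and 150 and 135 CPM at 1.5 mm. Counts in all 4 ME libraries were found for 4 members, among them Zm00001d014658 (member 3) with 5 and 4 counts at 2.0 mm and 2 and 24 counts at 1.5 mm.

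TAP and OSC shared these genes at unequal levels, with OSC the higher for more of them. At 2.0 mm the TAP libraries lay above both OSC libraries for 9 members and below both for 17, where the 1130 genes of the same somatic minimum had 57.5% above and 20.2% below. At 1.5 mm TAP lay above OSC for 6 members and below for 13, with 40.7% above and 27.5% below among the 1130 genes. The ratio of TAP to OSC means had a median of 0.785 at 2.0 mm (range 0.0950 to 2.56) and 0.893 at 1.5 mm (range 0.312 to 2.41). The rule used the TAP and OSC values, so these counts are a description.

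OSC lay above TAP at both lengths for 8 members and TAP above OSC at both lengths for 1. Genes of the same somatic minimum were not counted in this way, so the counts describe the members only. Zm00001d014658 belongs to the 8. It held 202 and 148 CPM in TAP against 570 and 531 CPM in OSC at 2.0 mm. At 1.5 mm it held 172 and 118 CPM in TAP against 226 and 338 CPM in OSC. Zm00001d044845 (member 13), another of the 8, lay at 98.6 and 88.5 CPM in TAP against 116 and 108 CPM in OSC at 2.0 mm, and 70.7 and 91.7 CPM in TAP against 146 and 107 CPM in OSC at 1.5 mm.

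The order of the cell types turned round between the lengths for 7 members. The share of all genes of the same somatic minimum that did so was not counted, so whether 7 is unusual was not tested. TAP was above OSC at 2.0 mm and below it at 1.5 mm for 4, namely Zm00001d011786, Zm00001d007422, Zm00001d038658 and Zm00001d025571 (members 2, 19, 21 and 28). For Zm00001d038658 the cell types were nearly level at 1.5 mm, with 92.9 and 99.6 CPM in TAP against 102 and 99.7 CPM in OSC. The nearest of these TAP and OSC values stood for 50 and 28 counts, so counting error alone could change their order. Zm00001d025571 held 117 and 169 CPM in TAP against 63.1 and 62.2 CPM in OSC at 2.0 mm, and 54.5 and 69.7 CPM in TAP against 169 and 121 CPM in OSC at 1.5 mm. Zm00001d011786 held 349 and 367 CPM in TAP against 287 and 175 CPM in OSC at 2.0 mm, and 208 and 145 CPM in TAP against 438 and 581 CPM in OSC at 1.5 mm. In both genes no library of one cell type overlapped the other. For the other 3 of the 7, members 7, 8 and 31, TAP was below OSC at 2.0 mm and above it at 1.5 mm.

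**Figure D3:**
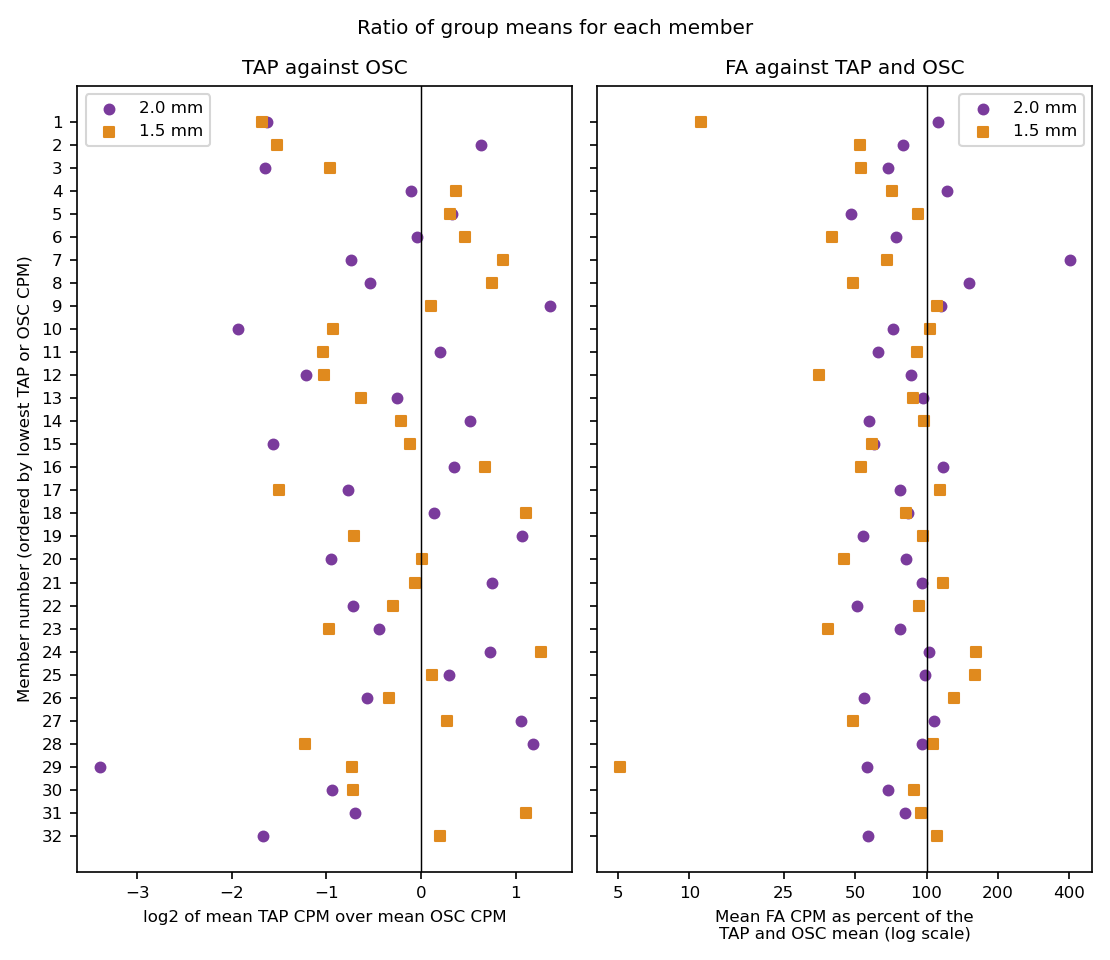
For each member (rows), the left panel gives log2 of the mean TAP CPM over the mean OSC CPM and the right panel the mean FA CPM as a percent of the mean of TAP and OSC (log scale), at 2.0 mm (purple circles) and 1.5 mm (orange squares). Member 29 has the lowest TAP to OSC ratio, 0.0950 at 2.0 mm, and the lowest FA percent, 5.08% at 1.5 mm, while member 7 reaches 401% in FA at 2.0 mm.

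Whole anthers, whose libraries were not used to choose the members, contained all of them. In every FA library each member lay above both ME libraries of the same length. At 2.0 mm 30 of the 32 reached 50 CPM in both FA libraries, and at 1.5 mm 27 did so in all 3. The FA level as a percent of the mean of TAP and OSC had a median of 80.2% at 2.0 mm (quartiles 61.8% and 99.7%) and 88.1% at 1.5 mm (quartiles 51.5% and 104%). Over the 1130 genes of the same somatic minimum the medians were 98.7% at 2.0 mm (quartiles 78.5% and 123%) and 104% at 1.5 mm (quartiles 75.5% and 143%).

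Single members stood far from these medians. At 1.5 mm all FA libraries lay below all TAP and OSC libraries of that length for 8 members, most of all Zm00001d005018 (member 29) at 5.08% and Zm00001d004821 (member 1) at 11.2% of the TAP and OSC mean. At 2.0 mm the same percent was 56.2% for Zm00001d005018 and 111% for Zm00001d004821. FA lay above all TAP and OSC libraries for 2 members at 2.0 mm, members 7 and 8 (401% and 151%), and for Zm00001d038658 at 1.5 mm (118%). How many of the 1130 genes lay below or above in this way was not counted, so these counts describe the members only. Member 7 held 918 and 312 CPM in FA at 2.0 mm against 136, 94.1, 175 and 208 CPM in the TAP and OSC libraries of that length. It was one of 5 of the 32 members (3, 7, 12, 22 and 29) that differed by 2-fold or more between the FA libraries at 2.0 mm. Of the 1130 genes 4.60% did so. The median ratio of the higher to the lower of these libraries was 1.40 for the members and 1.21 for the 1130 genes.

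Between anther lengths, whole anthers give the test that is independent of the choice of members. In FA, 18 of the 32 members (56.2%) differed between 2.0 mm and 1.5 mm, 12 higher and 6 lower, in edgeR's quasi-likelihood test with Benjamini-Hochberg adjustment over 16116 genes at a threshold of 0.05. Of all genes tested 29.7% were called, 15.2% higher and 14.5% lower, and of the 1130 genes of the same somatic minimum 39.4%, 25.8% higher and 13.6% lower. The members' log2 fold changes ran from -1.64 to 3.51 with a median of 0.38, beside medians of 0.01 over all genes tested and 0.14 over the 1130 genes. FA libraries of the lengths did not overlap for 13 members higher and 6 lower at 2.0 mm, beside 31.1% higher and 33.7% lower of the 1130 genes. Members 7, 12 and 29, all called higher, were among those that differed by 2-fold or more between the FA libraries at 2.0 mm. With library totals in place of edgeR's scaling factors (TMM, trimmed mean of M values), the median over all genes moved to -0.15. That of the members moved to 0.22. Members called were then 15 (46.9%), 9 higher and 6 lower, beside 30.5% of all genes, and none of the 18 changed direction. The split of all genes called was then 1999 higher and 2909 lower, against 2444 higher and 2338 lower with scaling factors. The count moved to 4 (12.5%) with all 17 libraries in one fit, where calls over all genes also fell to 4.62%. Without FA library 1, 2 or 3 at 1.5 mm it moved to 10, 11 and 9 (31.2%, 34.4% and 28.1%). Calls over all genes fell there to 19%, 20.1% and 17.3%.

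**Figure D4:**
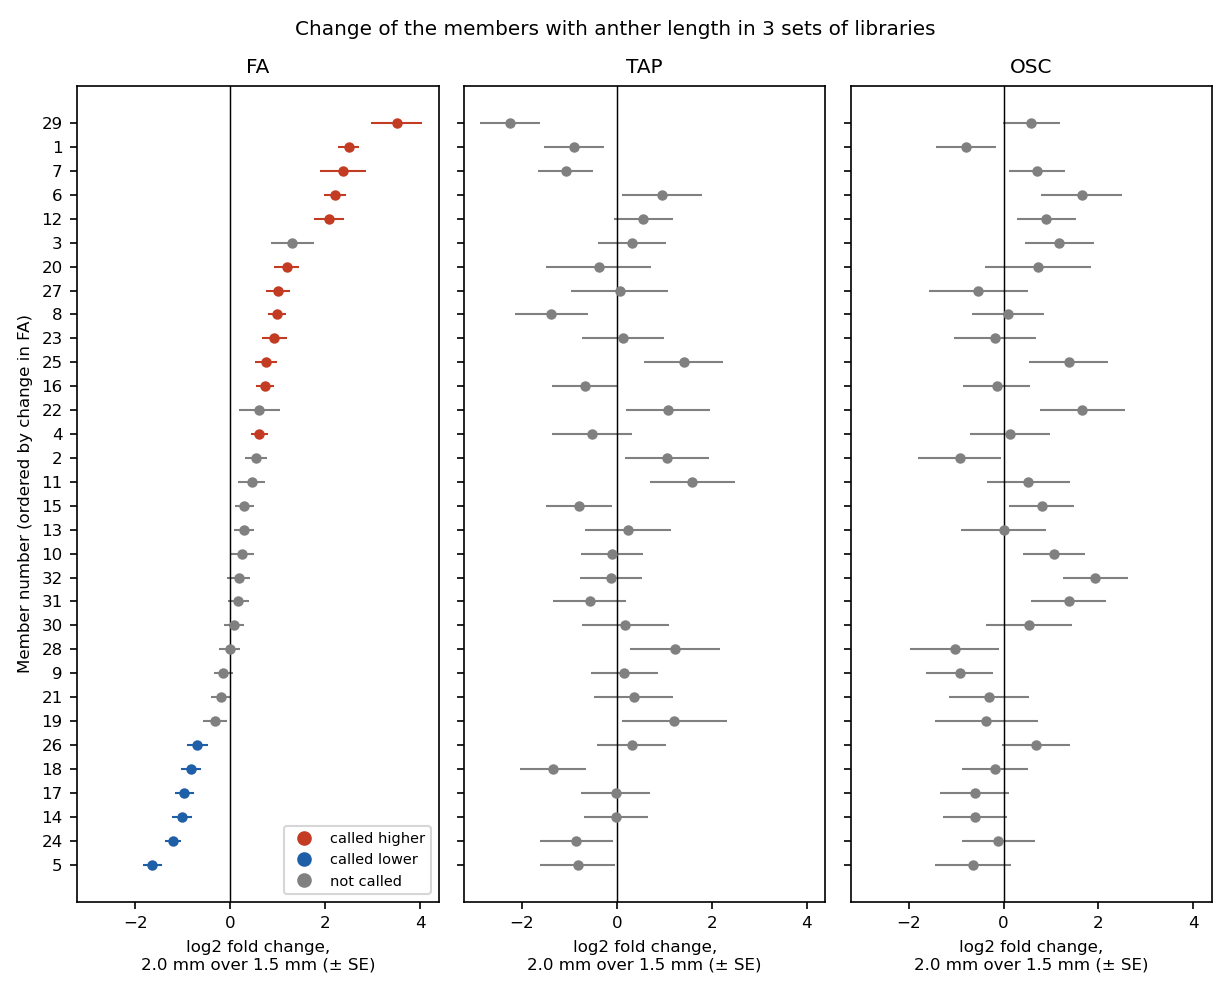
Points give the log2 fold change of each member at 2.0 mm over 1.5 mm with its standard error, in FA (5 libraries), TAP and OSC (12 captured libraries in one fit), in the order of the change in FA; red and blue mark members called higher and lower. The 12 red and 6 blue points are all in FA, and the members at the top in FA lie on both sides of 0 in TAP.

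Zm00001d005018 had the largest rise in FA. It held 294 and 129 CPM in FA at 2.0 mm against 15.7, 34.9 and 14.0 CPM at 1.5 mm, giving a log2 fold change of 3.51 (standard error, SE, 0.54, edgeR adjusted p 0.0070). The FA libraries of the lengths did not overlap. In TAP the same gene held 76.8 and 53.9 CPM at 2.0 mm against 345 and 293 CPM at 1.5 mm, and in OSC 702 and 673 CPM against 455 and 602 CPM. Thus the libraries at 2.0 mm were the higher ones in FA and OSC and the lower ones in TAP. Its log2 fold change in TAP was -2.25 (SE 0.63, edgeR adjusted p 0.0688), which was not called.

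Zm00001d004821 rose next most, to 339 and 540 CPM in FA at 2.0 mm against 78.7, 101 and 81.4 CPM at 1.5 mm (log2 fold change 2.50, SE 0.22, edgeR adjusted p 8.78e-05). In TAP it held 228 and 159 CPM at 2.0 mm against 390 and 353 CPM at 1.5 mm. In OSC it held 646 and 547 CPM at 2.0 mm against 1142 and 1236 CPM at 1.5 mm. Both kinds of captured somatic cells thus had their lower libraries at 2.0 mm, the reverse of the whole anthers, although neither was called (edgeR adjusted p of 0.492 in TAP and 0.720 in OSC).

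Zm00001d030868 (member 5) had the largest fall in FA. It held 58.7 and 52.3 CPM at 2.0 mm against 170, 202 and 208 CPM at 1.5 mm, giving a log2 fold change of -1.64 (SE 0.20, edgeR adjusted p 0.00042). Its TAP libraries held 109 and 149 CPM at 2.0 mm against 246 and 221 CPM at 1.5 mm, and its OSC libraries 99.0 and 106 CPM against 114 and 264 CPM. Here all 3 kinds of library were lower at 2.0 mm without overlap. Zm00001d006808, with no count in ME, held 50.8 and 64.9 CPM in FA at 2.0 mm against 136, 117 and 134 CPM at 1.5 mm, and also fell (log2 fold change -1.01, SE 0.21, edgeR adjusted p 0.0068). With all 17 libraries in one edgeR fit, which shares one estimate of the spread, neither fall was called, with log2 fold changes of -1.70 (adjusted p 0.149) and -1.06 (adjusted p 0.257).

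**Figure D5:**
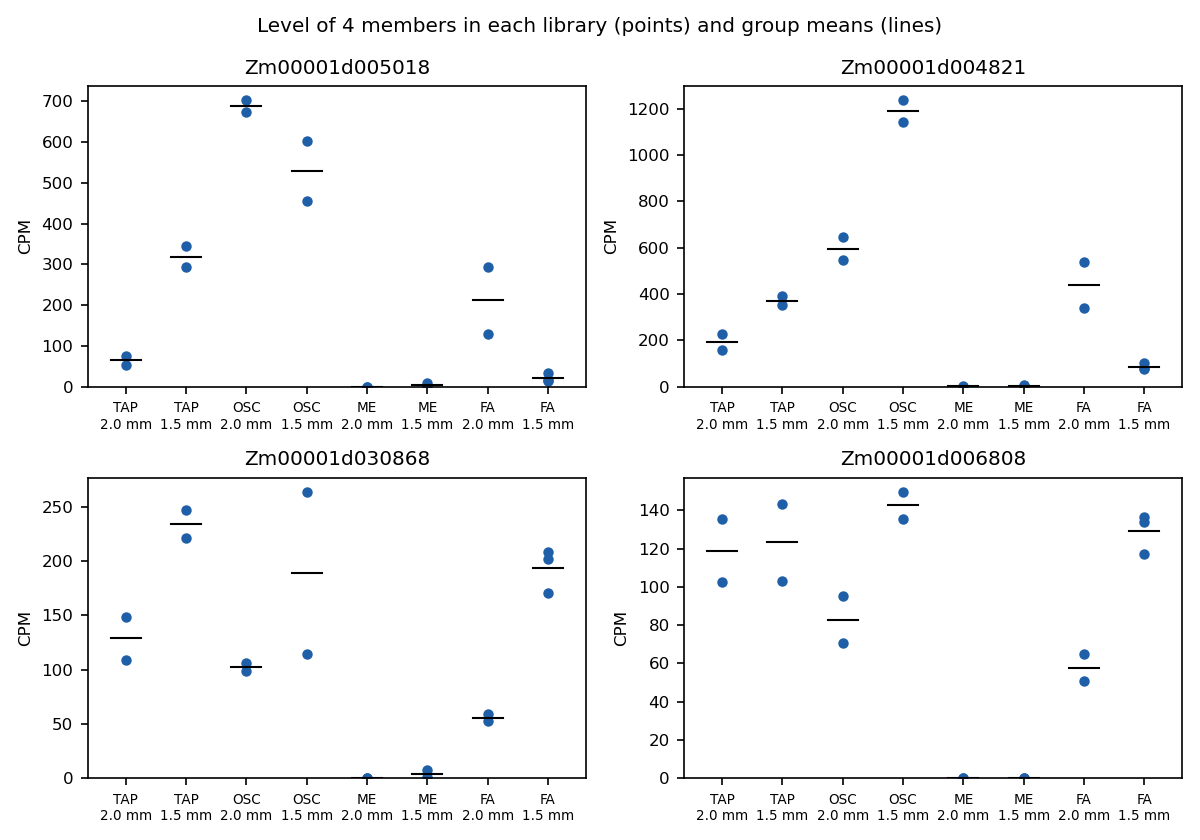
Points are the CPM of 4 members in each of the 17 libraries and lines the group means; the vertical axes start at 0. Zm00001d005018 and Zm00001d004821 are higher at 2.0 mm in FA and lower at 2.0 mm in TAP, while Zm00001d030868 is lower at 2.0 mm in FA, TAP and OSC.

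Within the captured somatic cells no member was called between lengths. In TAP 0 of 32 passed the edgeR adjusted threshold, beside 3.65% of all 16940 genes tested and 3.01% of the 1130 genes. DESeq2 called 1 (3.12%), beside 9.01% of all genes, and 1 had an unadjusted edgeR p under 0.05. In OSC 0 of 32 passed (1 unadjusted), beside 0.36% of all genes tested and 0.0885% of the 1130. There DESeq2 called 1 (3.12%), beside 2.85% of all genes. The median standard error of the members' log2 fold changes was 0.77 in TAP and 0.78 in OSC, against 0.23 in FA. Variation between replicates, as edgeR's biological coefficient, came to 70.7% in the fit of captured cells, ME included, and 29.5% in FA. The rule kept only genes at 50 CPM or more in every TAP and OSC library of both lengths. With only the 4 libraries of a cell type fitted, 4 members (12.5%) were called in TAP beside 16.6% of all genes, and 5 members (15.6%) in OSC beside 11.3% of all genes.

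The captured libraries of a member nevertheless often did not overlap between lengths. For 9 members both TAP libraries at 2.0 mm exceeded those at 1.5 mm, and for 12 both were lower, where the 1130 genes had 43.4% above and 27.6% below. OSC libraries at 2.0 mm lay above for 15 and below for 10, where the 1130 genes had 25% above and 38.6% below. Zm00001d052928 (member 32) had the members' largest log2 fold change with length in OSC, 1.93 (SE 0.68, edgeR adjusted p 0.310), which was not called. Its OSC libraries held 221 and 220 CPM at 2.0 mm against 52.7 and 81.9 CPM at 1.5 mm. Its TAP libraries held 58.7 and 80.2 CPM against 74.7 and 79.7 CPM. The ratio of means at 2.0 mm to 1.5 mm ran from 0.205 to 2.96 in TAP and from 0.432 to 3.27 in OSC. Its median was 0.994 in TAP and 0.926 in OSC, while the medians of the TMM-scaled log2 fold changes were 0.02 and 0.11, so the sign of these medians depends on the scaling. With library totals the median log2 fold change in OSC was -0.10 for the members and -0.04 for all genes, against 0.11 and 0.09 with TMM factors.

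The change with length in TAP minus that in OSC was called by edgeR for 0 of 32 members. All 8 libraries compared had entered the rule, which kept only genes at 50 CPM or more in each. Falls to near 0 and rises from near 0 were thus left out in advance, as for the 1130 genes but not for all genes. Of all genes 0.738% were called, and of the 1130 genes 0.354%. An unadjusted edgeR p under 0.05 was found for 3 members, and DESeq2 called 1 (3.12%), beside 3.75% of all genes. With only the 8 TAP and OSC libraries fitted, 5 (15.6%) were called, beside 6.96% of all genes. With TMM scaling, the direction of the members' change in FA was that of OSC for 26 of 32 and that of TAP for 16 of 32. Over the 1130 genes it was that of OSC for 60.7% and that of TAP for 61.2%. By ratios of CPM means, members 4, 8, 13 and 30 no longer shared a direction between FA and OSC. No member came to share it, so the count of 26 depends on the scaling. The FA, TAP and OSC sets have no library in common. Across the 32 members, the log2 fold changes had a Pearson's r of 0.33 between FA and OSC and -0.17 between FA and TAP, and across the 1130 genes 0.34 and 0.32. Genes are not independent replicates, and no test is given for these values.

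The change with length in FA was set against that in TAP in a fit of all 17 libraries, a test chosen after the opposite values above had been seen. Its p-values restate those values, and the TAP libraries had also entered the rule, so they are no independent support. It was called for 3 of 32 members (9.38%), all with the more positive change in FA, beside 3.94% of all 18310 genes (3.01% in that direction) and 3.54% of the 1130 (2.21% in that direction). The 3 were Zm00001d005018 with a log2 difference of 5.63 (SE 0.82, edgeR adjusted p 0.0017), Zm00001d004821 with 3.29 (SE 0.69, adjusted p 0.0149) and member 7 with 3.35 (SE 0.68, adjusted p 0.0118). Against OSC the same test called 0 of 32 (4 had an unadjusted p under 0.05), beside 0.197% of all genes and 0.619% of the 1130. The log2 difference from OSC was as large for Zm00001d004821, at 3.29 (SE 0.69, adjusted p 0.0635). It was 2.90 for Zm00001d005018 (SE 0.79, adjusted p 0.169) and 1.67 for member 7 (SE 0.67, adjusted p 0.387).

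Gene length was not used by the rule. The lengths given in the deposited table had a median of 1952.5 bases for the members (quartiles 1343 and 3764), beside 2301 bases for the 1130 genes of the same somatic minimum and 1620 bases for all 31178 nuclear genes with a count. Sequences of the members were not used here.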

How the data were processed

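Gene counts are as the authors deposited them, one whole number per gene and library for 17 CEL-seq2 libraries. The submitters' processing notes name fastp, Trim Galore and HISAT2. The genome build, the counting tool and its strand setting, and whether molecular identifiers were collapsed are not given in the sources used here, so reads of overlapping genes or near-identical copies may be split or shared. Groups and replicate numbers came from the labels, and 0 columns of sample values were left unused. Organelle and other rows count in the totals behind CPM.

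Members and lists were chosen with earlier results of these data known. The captured libraries chose the members, so TAP or OSC against ME has no test. Anther lengths were compared with edgeR 4.0.16 (quasi-likelihood, TMM scaling, filterByExpr with a minimum count of 10, robust dispersion) in R 4.3.3, with Benjamini-Hochberg adjustment over all genes tested and a threshold of 0.05. The 5 FA libraries were one fit and the 12 captured libraries another, and the scripts were tested on simulated data. Standard errors are approximate: each is the size of edgeR's log2 fold change divided by the square root of its F statistic. Python 3.11.15 computed CPM and ratios. CPM means carry no pseudocount, and correlations used log2(CPM + 1).

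Genes were named by a rule: the 6 members of highest lowest TAP or OSC CPM, the largest rise and fall called in FA, TAP and OSC, and the genes at the edges. At most 2 IDs called higher and 2 called lower are printed. Zm00001d006808, Zm00001d044845, Zm00001d007422, Zm00001d038658 and Zm00001d025571 were chosen after their values were seen. Alternatives were DESeq2 1.42.0, other scalings, no filter, other fits, other limits of the rule, and leaving out each library. Intervals and limits at 0 counts cover counting error only.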

Additional observations from a re-analysis of the deposited data

Results flagged for a closer look

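In 3 members the change between anther lengths differed between whole anthers and captured tapetum by a test of the difference itself, an edgeR interaction over all 17 libraries with adjustment over 18310 genes. The test was chosen after the opposite values had been seen, and TAP values entered the choice of members, so its p-values are no independent support. The log2 difference, FA minus TAP, was 5.63 for member 29 (Zm00001d005018, adjusted p 0.0017), 3.35 for member 7 (adjusted p 0.0118) and 3.29 for member 1 (Zm00001d004821, adjusted p 0.0149). The log2 difference, FA minus OSC, was 2.90 for member 29 (adjusted p 0.169), 1.67 for member 7 (adjusted p 0.387) and 3.29 for member 1 (adjusted p 0.0635), so for member 1 it was as large against OSC as against TAP. In all 3 the FA libraries at 2.0 mm lay above those at 1.5 mm and the TAP libraries at 2.0 mm lay below those at 1.5 mm, without overlap. No group held the 4 libraries that a check for a single library far from the others needs.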

How the results depend on the processing

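Of the results that answer a comparison, 50 recomputed values stayed near the reported value and 25 moved. These values are counts and percents, which have no direction to reverse. The 18 members called in FA became 4 with all 17 libraries in one fit and ran from 9 to 21 when single libraries were left out. Over all genes the 4782 calls became 3105, 3267 and 2609 without FA library 1, 2 and 3 at 1.5 mm. Where 1 library was left in an arm it was assumed to vary like the other groups. Replicate numbers did not pair the samples, since same-numbered libraries of the lengths had correlations of -0.11 in FA, 0.01 in TAP and -0.02 in OSC. With the replicate block 9 members (28.1%) were called in FA, all among the 18, beside 15.9% of all genes. Zm00001d005018 (log2 3.19, edgeR adjusted p 0.0924) and Zm00001d006808 (log2 -0.97, edgeR adjusted p 0.0555) were then not called. The 0 members called in TAP became 1 without the count filter, 1 with DESeq2, 1 with all 17 libraries and 4 with only the TAP libraries. These are 3.12%, 3.12%, 3.12% and 12.5% of the members, beside 4.68%, 9.01%, 10.8% and 16.6% of all genes. The 0 called in OSC became 1 (3.12%) with DESeq2 and 5 (15.6%) with only the OSC libraries, beside 2.85% and 11.3% of all genes. The 0 called for TAP minus OSC became 1 (3.12%) with DESeq2 and 5 (15.6%) with only the libraries compared, beside 3.75% and 6.96% of all genes. Without single libraries all 3 counts were 0, which says little, since each of these fits left 1 library in an arm. The 32 members became 140 at a TAP and OSC minimum of 25 CPM, 4 at 100 CPM, 9 at an ME maximum of 5 CPM and 82 at 20 CPM, and ran from 32 to 65 without single libraries. The median FA percent ran from 76.3 to 93.8 at 2.0 mm and from 83.6 to 86.7 at 1.5 mm without single FA libraries, and at 1.5 mm it was 85.2 with TMM-scaled totals and 82.0 with nuclear totals. The cause of these differences was not tested.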

Other observations

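The reverse pattern was also present. Of 1763 nuclear genes with 50 CPM or more in all 4 ME libraries, 65 were at 10 CPM or less in all 8 TAP and OSC libraries. Between the FA libraries at 2.0 mm 5 of the 32 members differed by 2-fold or more, beside 4.60% of the 1130 genes of the same somatic minimum. Between the OSC libraries at 1.5 mm 4 of the 32 did so, beside 6.02% of those genes.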
